A study of Danio rerio with 4 samples.

Results

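The epidermal keratins described here are 9 zebrafish (*Danio rerio*) genes, *krt4*, *krt5*, *krt8*, *krt15*, *krt17*, *krt92*, *krt97*, *cyt1* and *cyt1l*, out of 14819 genes in the deposited table. They were found by matching RefSeq mRNA accessions to these symbols, and all 9 were matched, each by 1 accession. Keratins are the intermediate filament proteins of epithelia. Every filament is built from pairs of a type I and a type II chain, so a cell needs genes of both kinds. In the fish larva the skin is a thin epithelium with a superficial layer, which descends from the periderm, over a basal layer that sits on the basement membrane, and each layer has its own keratins. Of the 9 genes, *krt4*, *krt5* and *krt8* encode type II chains and the other 6 encode type I chains.

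The mutants were whole larvae of genotype uhrf1-hi272 -/-, and the siblings were larvae of normal phenotype, a mix of +/+ and +/-, all taken at 5 days post fertilization (dpf). *uhrf1* encodes a protein that binds hemimethylated DNA and brings the maintenance methyltransferase Dnmt1 to replicated DNA. Total RNA of 10 pooled larvae, depleted of ribosomal RNA, made up each library, with 2 libraries of mutants and 2 of siblings. Larvae were sorted by phenotype and came from 2 clutches, which the labels do not tie to libraries. The p-values weigh the difference between groups against the spread between pools of a group, estimated with help from all genes tested. They say nothing beyond these pools.

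Counts assigned to genes came to 9100665 and 3299449 in mutants 1 and 2, and to 4981004 and 2996676 in siblings 1 and 2. Levels are given in CPM, a gene's count over its library size after TMM scaling, and are not divided by transcript length. They do not rank the transcript numbers of different genes, and shares or ratios between genes are given only to compare libraries. The threshold throughout is an edgeR adjusted p of 0.05 over the 12786 genes tested, each a RefSeq mRNA row. The *uhrf1* transcript itself stood at 33.3 and 24.2 CPM in the mutants and at 21.4 and 46.8 CPM in the siblings, so its level does not check the labels. With whole larvae, fewer cells of a type and less RNA per cell cannot be told apart.

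Of the 9 keratins, *krt92*, *krt97* and *cyt1l* were lower in mutants, by 3.04-fold to 3.69-fold. They are 3 of the 6 type I genes. None of the 3 type II genes passed, and a difference between the types was not tested. In all, 3 of the 9 keratins passed as lower, against 3.79% of all genes tested, and 0 passed as higher, against 4.58% of all genes (8.37% in either direction). The members were chosen with earlier results of these data known, so the comparison with all genes is a description. No member had an unadjusted edgeR p under 0.05 in the higher direction, and 0 were called higher by DESeq2 and by limma-voom. The median log2 fold change of the 9 genes, mutant over sibling, was -0.95, beside 0.00363 over all genes. It was -0.38 without sibling 1, -0.57 without mutant 2, -1.39 without sibling 2 and -1.47 without mutant 1. Without mutant 2 the number lower was 1, and without sibling 2 it was 5. Both mutants lay below both siblings for 5 of the 9 genes, against 26.9% of all genes, and above both for 1, against 28.0%.

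**Figure D1:**
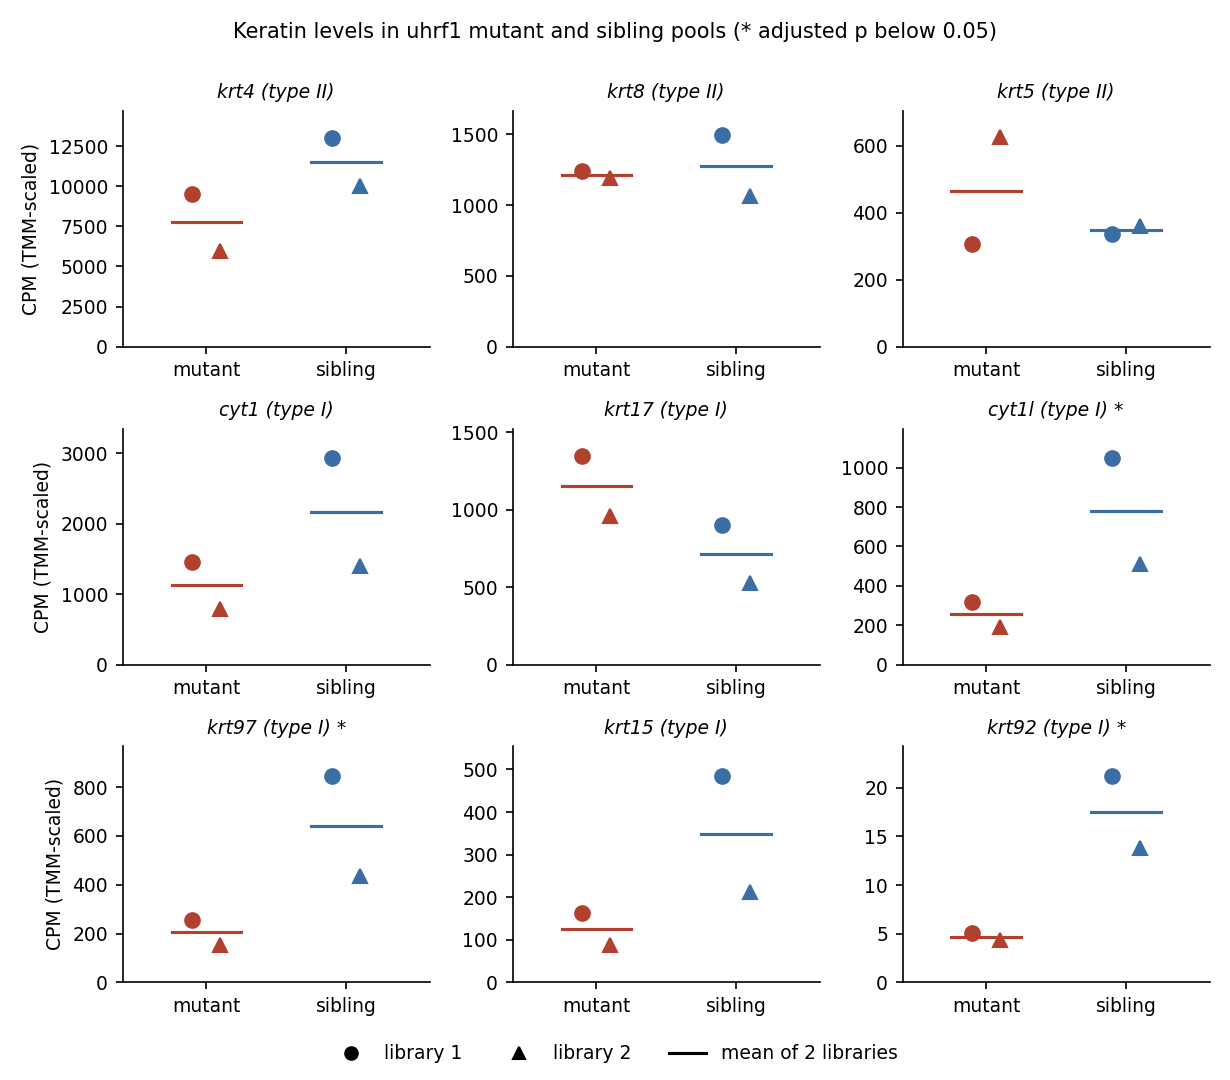
CPM after TMM scaling (vertical axes, each from 0) of the 9 keratin genes in the mutant and sibling pools; circles are library 1, triangles library 2, bars the mean of 2 libraries, and an asterisk marks an edgeR adjusted p below 0.05. *krt4*, *cyt1l*, *krt97*, *krt15* and *krt92* lie lower in both mutants than in both siblings, *krt17* lies higher, and for *krt5* mutant 2, at 625 CPM, stands above the other libraries.

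Among the type II chains, *krt4*, a keratin of the superficial skin layer, had 9528 and 5961 CPM in the mutants, against 13016 and 10024 CPM in the siblings. It supplied 59.8% to 65.2% of the counts of the 9 genes in the mutants and 61.7% to 68.9% in the siblings. The groups did not overlap, but mutant 1 was close to sibling 2, and the log2 fold change of -0.57 (edgeR adjusted p = 0.562, SE 0.53) did not pass.

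*krt8*, the type II partner of keratin 18 in simple epithelia, had 1242 and 1191 CPM in the mutants and 1495 and 1064 CPM in the siblings. Both mutants fell between the siblings. Its log2 fold change was -0.07 (edgeR adjusted p = 0.928, SE 0.35), and its sign turned with scaling by library totals alone (0.02) and without sibling 1 (0.19).

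*krt5* shares its name with a type II chain of the mammalian basal layer. It had 306 and 625 CPM in the mutants and 338 and 362 CPM in the siblings. The siblings were close to each other, and the mutants lay on either side of them. Its log2 fold change of 0.41 (edgeR adjusted p = 0.523, SE 0.35) did not pass and was -0.19 without mutant 2.

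Among the type I chains, *krt92* had the fewest counts and the largest log2 fold change of the 9 genes. It stood at 5.06 and 4.31 CPM in the mutants, against 21.2 and 13.8 CPM in the siblings, from 46 and 15 counts against 94 and 44. The log2 fold change was -1.88 (edgeR adjusted p = 0.0102, SE 0.36). The fall passed in each of the 4 fits that left out a library, with edgeR adjusted p between 0.000985 and 0.0362.

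*krt97* had 258 and 152 CPM in the mutants and 844 and 435 CPM in the siblings. Both mutants were well under the lower sibling, and the log2 fold change was -1.64 (edgeR adjusted p = 0.0282, SE 0.39). Leaving out mutant 2 ended the call: the edgeR adjusted p was then 0.267, the highest of the leave-one-out fits (the lowest was 0.000185).

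*cyt1l* is the neighbour and namesake of *cyt1*, a type I keratin of the enveloping layer, the outer sheet of the early embryo from which the periderm comes. It had 319 and 192 CPM in the mutants, against 1047 and 509 CPM in the siblings, again without overlap. Its log2 fold change was -1.60 (edgeR adjusted p = 0.0369, SE 0.40). Leaving out mutant 1 or mutant 2 ended the call (edgeR adjusted p = 0.0503 and 0.329), and the lowest value in a fit that left out a library was 0.000295. Without sibling 1 the log2 fold change was -0.99, still past the threshold.

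*cyt1* itself had 1457 and 792 CPM in the mutants and 2936 and 1405 CPM in the siblings, so that mutant 1 lay just above sibling 2. Its log2 fold change was -0.95 (edgeR adjusted p = 0.259, SE 0.47), and it passed only without sibling 2 (edgeR adjusted p = 0.0317) among the leave-one-out fits, whose highest value was 0.853.

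*krt15*, which shares its name with a type I chain of mammalian basal keratinocytes, stood just outside the threshold. It had 162 and 87.4 CPM in the mutants and 484 and 212 CPM in the siblings, with no overlap. The log2 fold change was -1.47 (edgeR adjusted p = 0.0533, SE 0.41). It passed as lower in 4 of 9 alternatives that changed the tool, the scaling or the filter and had no block, with adjusted p between 0.00291 with DESeq2 and 0.0613 in edgeR with at least 50 counts required in 2 libraries. With 1 library left out it passed in 2 of 4 fits (edgeR adjusted p between 0.000144 and 0.332), and its log2 fold change was -0.76 without sibling 1 and -2.01 without mutant 1.

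*krt17* shares its name with a type I chain induced in wounded mammalian skin. It was the one member with both mutants above both siblings. It had 1346 and 960 CPM in the mutants and 903 and 529 CPM in the siblings. Mutant 2 was close to sibling 1, and the log2 fold change of 0.69 (edgeR adjusted p = 0.309, SE 0.37) did not pass. Leaving out 1 library gave between 0.35 and 1.12.

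Within each group, library 1 was higher than library 2 for all of the 9 genes except *krt5*. The ratio of library 1 to library 2 was 1.04 to 1.86 in the mutants, lowest for *krt8* and highest for *krt15*, and reached 2.28 in the siblings, lowest for *krt4* and highest for *krt15*. *krt5* went the other way, with ratios of 0.490 in the mutants and 0.935 in the siblings. The part that clutch or library has in this order was not tested.

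**Figure D2:**
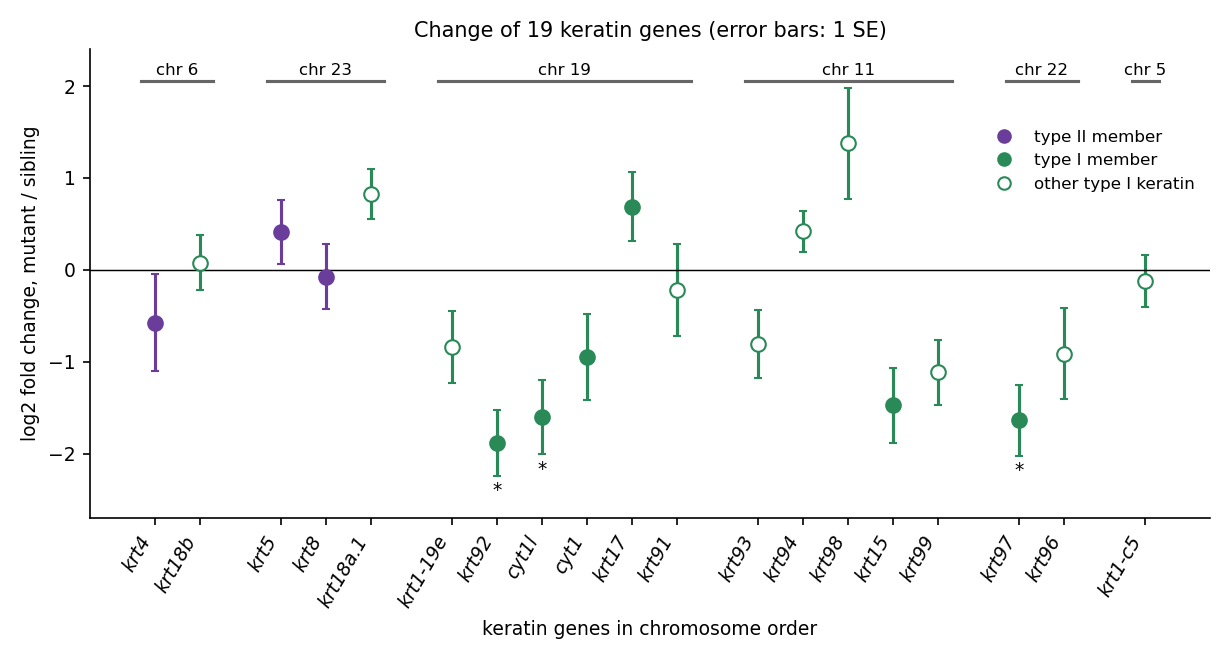
Log2 fold change, mutant over sibling (vertical axis, error bars 1 SE), of the 19 keratin genes tested, grouped by chromosome in gene order, with purple for type II, green for type I and open circles for keratins outside the 9; an asterisk marks an edgeR adjusted p below 0.05. *krt92*, *cyt1l* and *krt97* lie lowest, and *krt17*, in the same run of genes on chromosome 19 as *cyt1l*, lies above 0 at 0.69.

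The genes that passed lie on 2 chromosomes. In the RefSeq gene order (assembly GRCz12tu, used for names and neighbours only), *krt92*, *cyt1l*, *cyt1* and *krt17* follow one another on chromosome 19 with 0 other protein-coding genes between them. *krt1-19e* lies before this run and *krt91* after it. Along it the log2 fold changes were -0.84 for *krt1-19e*, -1.88 for *krt92*, -1.60 for *cyt1l*, -0.95 for *cyt1*, 0.69 for *krt17* and -0.22 for *krt91*. *krt97* lies on chromosome 22, directly between the keratin genes *krt222* and *krt96*. On chromosome 11, *krt15* lies in an unbroken run with *krt93*, *krt94*, *krt98* and *krt99*. *krt5* and *krt8* lie next to each other on chromosome 23, and *krt4* on chromosome 6. Keratin genes in such runs can be close copies. Their sequences were not compared here, and the handling of reads that fit several genes is not given in the sources used here. So a single value of *cyt1*, *cyt1l*, *krt17*, *krt92*, *krt97*, *krt15* or another keratin with keratin neighbours is uncertain where reads could be split.

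Ratios between genes of the same library do not depend on the scaling between libraries, and the pairs below were picked after their values were seen. *cyt1l* had 1.24 and 1.26 counts for each count of *krt97* in the mutants, against 1.24 and 1.17 in the siblings. *krt15* had 0.630 and 0.574 counts for each count of *krt97* in the mutants, against 0.573 and 0.488 in the siblings. These 3 genes lie on 3 chromosomes, and their ratios to one another moved little over the 4 libraries, with *krt15* a little higher against *krt97* in mutant 1 and lower in sibling 2.

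Other pairs differed between the groups. *krt17* had 4.21 and 5.00 counts for each count of *cyt1l* in the mutants, against 0.862 and 1.04 in the siblings. *cyt1* had 4.56 and 4.12 counts for each count of *cyt1l* in the mutants, against 2.80 and 2.76 in the siblings. Both pairs are without overlap between the groups, and with 2 libraries a group an exact two-sided permutation test cannot go below 0.333, so the ratios are given as a description.

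**Figure D3:**
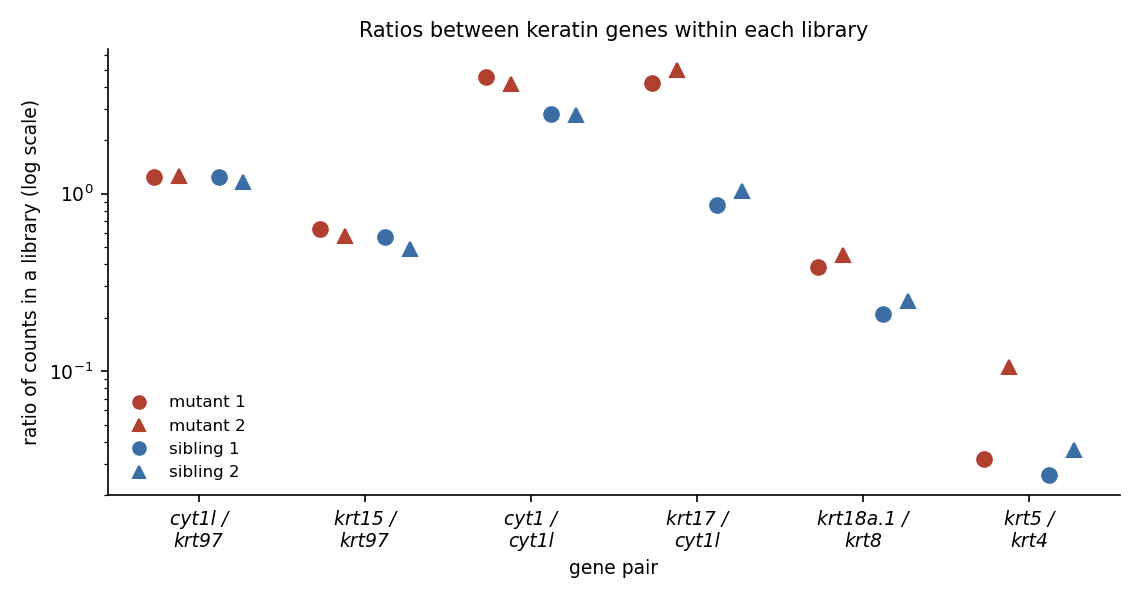
Ratio of counts of one keratin gene to another within each library (vertical axis, log scale) for 6 gene pairs; red is mutant, blue sibling, circles library 1 and triangles library 2. The ratio of *cyt1l* to *krt97* lies between 1.17 and 1.26 in the 4 libraries, while that of *krt17* to *cyt1l* is 4.21 and 5.00 in the mutants and 0.862 and 1.04 in the siblings.

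Summed over the 9 genes, keratins held 1.46% (95% Wilson interval 1.45% to 1.47%) and 1.05% (1.04% to 1.06%) of gene counts in mutants 1 and 2. They held 1.88% (1.87% to 1.89%) and 1.54% (1.53% to 1.56%) in siblings 1 and 2. The intervals cover counting error only. With the other keratins of the table included, the shares were 1.99% and 1.45% in the mutants and 2.52% and 2.02% in the siblings. After scaling, the sums were 14624 and 9966 CPM in the mutants, against 21085 and 14554 CPM in the siblings, so that mutant 1 lay just above sibling 2. Among the 9 genes alone, the type I sum was 0.320 and 0.281 of the type II sum in the mutants. It was 0.420 and 0.271 in the siblings, and the groups overlapped. The 11 other keratins, all type I, are left out of this ratio, so it does not give the balance of all chains. Those 11 summed to 5295 and 3765 CPM in the mutants and to 7258 and 4512 CPM in the siblings.

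Of the 11 other keratin genes in the table, all type I, 10 were tested and none passed the threshold. Of these, 2 had an unadjusted edgeR p under 0.05 as higher and 1 as lower. DESeq2, which also tested *krt95*, called 1 higher and 2 lower, *krt95* among the lower, and limma-voom called 0. Their median log2 fold change was -0.17. It was 0.21 without sibling 1, -0.24 without mutant 2, -0.38 without mutant 1 and -0.74 without sibling 2, with *krt95* tested in all of these fits but the one without sibling 1. Without sibling 2 there were 3 called lower, *krt96*, *krt99* and *krt95*, and without mutant 2 there was 1, *krt95*. *krt18a.1*, a type I partner of *krt8*, had 481 and 537 CPM in the mutants and 312 and 263 CPM in the siblings, without overlap (log2 fold change 0.83, edgeR adjusted p = 0.0933, SE 0.27; DESeq2 adjusted p = 0.0197). It had 0.387 and 0.451 counts for each count of *krt8* in the mutants, against 0.209 and 0.247 in the siblings.

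*krt1-19e*, whose promoter is used to mark basal keratinocytes, had 1884 and 1344 CPM in the mutants and 3166 and 2610 CPM in the siblings (log2 fold change -0.84, edgeR adjusted p = 0.237, SE 0.40; DESeq2 adjusted p = 0.0252). Both siblings were higher than both mutants, but the difference did not pass in edgeR. *krt91* had 2410 and 1472 CPM in the mutants and 3248 and 1273 CPM in the siblings, and the groups overlapped. *krt18b* and *krt94* had log2 fold changes of 0.08 and 0.42 and did not pass. *krt95*, under the count filter and named for its values, had 0 counts in either mutant and 18 and 5 counts in siblings 1 and 2. The sibling level of *krt95* was 12.6-fold a floor of 3 counts over the mutant group. This ratio takes the sibling counts as exact, so it does not cover their counting error or the spread between pools. It was 6.58-fold without sibling 1, 17.0-fold without sibling 2, 3.50-fold without mutant 1 and 9.15-fold without mutant 2.

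Most epidermal genes other than keratins did not pass the test, and the few that passed were higher in mutants. The genes were taken from lists of the superficial layer, the basal layer, epidermal transcription factors, the desmosome and the hemidesmosome. Together these lists held 50 tested genes other than keratins. Of these, 6 were higher in mutants and 0 lower (0 at an unadjusted edgeR p under 0.05, 0 with DESeq2 and 0 with limma-voom), against 4.58% and 3.79% of all genes. Their median log2 fold change was 0.38. Without mutant 2 none of the 50 passed, without sibling 1 there were 9 called, all higher, and without sibling 2 there was 1 called lower. These lists, too, were chosen with earlier results of these data known. The difference between these genes and the keratins was not tested.

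In the list of the superficial layer, 3 of 16 tested genes rose, and 1 matched gene had 0 counts in all 4 libraries. The pools were whole larvae, so no skin layer was measured by itself. *cldne*, a claudin of superficial cell junctions, had 206 and 273 CPM in the mutants and 96.7 and 119 CPM in the siblings (log2 fold change 1.15, edgeR adjusted p = 0.0187, SE 0.25). *capn9*, a calpain protease gene, and *s100a10b*, a calcium-binding protein gene, rose by 1.07 each on the log2 scale (edgeR adjusted p = 0.0202 and 0.0496). The calls of all 3 were lost without mutant 2, and that of *s100a10b* also without mutant 1, without sibling 2, with RLE scaling and with TMM factors taken without keratins. The abundant *icn* (ictacalcin) and *anxa1a* (an annexin) had log2 fold changes of 0.02 and 0.09, with overlapping groups.

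In the list of the basal layer, 2 of 16 tested genes rose, with *krt1-19e* counted among the 16. The median of 0.43 was 0.24 without mutant 2 and 0.28 without sibling 1. *itgb4*, the integrin beta chain of hemidesmosomes, had 157 and 137 CPM in the mutants and 77.8 and 72.9 CPM in the siblings (log2 fold change 0.96, edgeR adjusted p = 0.0197, SE 0.21). *cdh1*, the E-cadherin gene, had 639 and 723 CPM in the mutants and 330.1 and 327 CPM in the siblings (1.05, edgeR adjusted p = 0.0464, SE 0.28). The call of *itgb4* was lost without either mutant, and that of *cdh1* in each fit that left out a library and with upper-quartile scaling. *col17a1a*, a transmembrane collagen of hemidesmosomes, had a log2 fold change of 0.55 (SE 0.32) and did not pass.

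Keratin filaments end on desmosomes and hemidesmosomes. Only 8 of the 16 desmosome symbols and 6 of the 14 hemidesmosome symbols listed were matched and tested. Of 8 desmosome genes tested, 1 rose, the desmoglein gene *dsg2.1* (log2 fold change 0.81, edgeR adjusted p = 0.0355, SE 0.20), a call that ended with DESeq2 and in each fit that left out a library. The periplakin gene *ppl*, whose product links filaments to desmosomes, had 408 and 358 CPM in the mutants and 467 and 458 CPM in the siblings and did not pass. Of 6 hemidesmosome genes, 1 rose, *itgb4*, and the plectin gene *pleca* had a log2 fold change of 0.17 (SE 0.33). Of 13 epidermal transcription factor genes none passed (4 had an unadjusted edgeR p under 0.05, all higher, and 0 passed with DESeq2 or limma-voom), and the abundant *tfap2c* and *klf6a* had log2 fold changes of -0.06 and 0.57.

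**Figure D4:**
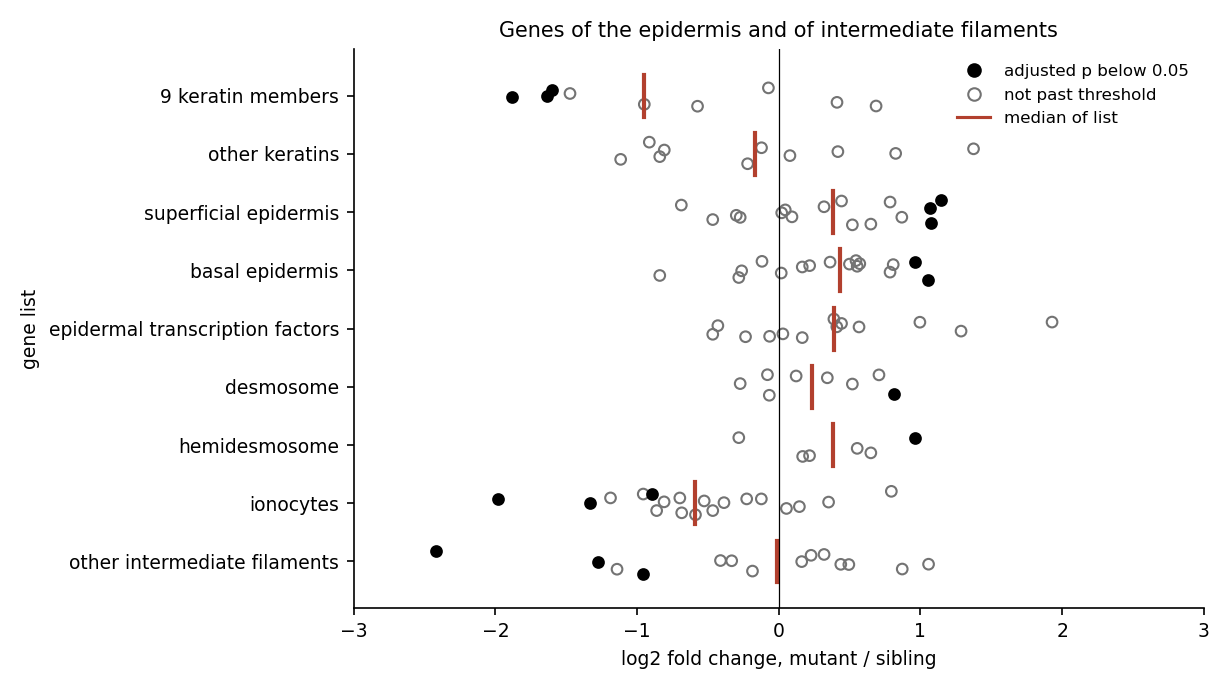
Log2 fold change, mutant over sibling (horizontal axis), of each tested gene (circles) in 9 gene lists; filled circles passed an edgeR adjusted p of 0.05 and red bars are list medians. The medians are -0.95 for the 9 keratins, 0.38 for the superficial layer, 0.43 for the basal layer and -0.59 for ionocytes. With 1 library left out they range from -1.47 to -0.38, from 0.36 to 0.44, from 0.24 to 0.49 and from -0.70 to -0.49, in the same order.

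Ionocytes and mucous cells also lie in the larval skin. Ionocytes serve ion transport, and of 19 genes in their list 3 fell and 0 rose, against 3.79% and 4.58% of all genes. The median log2 fold change of the list was -0.59. The pools were whole larvae, so ionocytes were not measured by themselves. There were 1 lower without either mutant and 5 lower without sibling 2. In the fits to all 4 libraries, no ionocyte gene had an unadjusted edgeR p under 0.05 as higher, or was called higher by DESeq2 or limma-voom. The absence of higher calls did not hold without sibling 1. The sodium pump gene *atp1a1a.4* had 381 and 304 CPM in the mutants and 1620 and 1082 CPM in the siblings (log2 fold change -1.98, edgeR adjusted p = 0.00717, SE 0.35). The calcium channel gene *trpv6* fell by 1.33 (SE 0.22) and the cotransporter gene *slc12a10.2* by 0.90 (SE 0.22) on the log2 scale. The summed level of the 19 genes was 2589 and 2738 CPM in the mutants, against 4186 and 3793 CPM in the siblings. Most of that gap lay in *atp1a1a.4*, whose levels are given above. The part of ionocytes in the keratin levels was not tested. The calls of *atp1a1a.4* and *slc12a10.2* were lost without either mutant, and that of *slc12a10.2* also without sibling 2, with DESeq2 and with library totals alone. Of 10 mucous cell symbols only 2 were tested, and the marker *agr2* had 42.4 and 60.1 CPM in the mutants and 20.1 and 36.5 CPM in the siblings (edgeR adjusted p = 0.122).

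Intermediate filament genes other than keratins were mixed, with 7 log2 fold changes above 0 and 7 below. The list includes nuclear lamins, whose log2 fold changes of 0.23 to 0.87 were all above 0. Of 14 tested, 3 fell, against 3.79% of all genes, and 0 rose, against 4.58%. As higher, 1 had an unadjusted edgeR p under 0.05, and 0 passed with DESeq2 or limma-voom. The median was -0.01 (0.23 without sibling 2). The number lower was 1 without mutant 2 and 2 without mutant 1. Those that fell belong to other tissues: the lens filament gene *bfsp2* (log2 fold change -2.42, SE 0.26), the neuronal *inaa* (-0.96, SE 0.21) and the desmin gene *desmb* (-1.27, SE 0.30). The calls of *inaa* and *desmb* were lost without mutant 2, and that of *inaa* also without mutant 1 and with library totals alone. The muscle gene *desma* and the lamin gene *lmnb2* had log2 fold changes of -0.19 and 0.44 and did not pass.

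Markers of other organs were read in the same pools. All 13 tested lens markers and all 15 tested exocrine pancreas markers were lower, with medians of -2.94 and -3.92 on the log2 scale (-6.05 for the pancreas without mutant 1), and 9 of 16 intestinal markers were lower, with a median of -1.07 (4 lower without mutant 2 and 6 without mutant 1). Summed levels for the lens were 559 and 517 CPM in the mutants against 5040 and 2843 CPM in the siblings. For the exocrine pancreas they were 2353 and 329.6 CPM in the mutants, with mutant 1 well above mutant 2, against 28171 and 13566 CPM in the siblings. For the intestine, where *krt8* and *krt18a.1* are also known to be expressed, they were 2376 and 2733 CPM in the mutants against 4907 and 4379 CPM in the siblings. Of 12 notochord genes none passed (4 had an unadjusted edgeR p under 0.05, all higher, and 0 passed with DESeq2 or limma-voom). Neither the 14 neuronal genes (2 lower at an unadjusted edgeR p under 0.05, 1 lower with DESeq2 and 0 with limma-voom) nor, apart from *tnni2a.1*, the 21 muscle genes passed. The part of these tissues in the keratin levels was not tested.

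The genes whose levels over the 4 libraries were most like the mean pattern of the 9 keratins were *tob1b*, *slc1a3a*, *fam32a*, *fbp1a* and *aldh6a1*, at distances of 0.04 to 0.14. Distance here is the Euclidean distance between mean-centred log2(CPM + 1) values, over 3651 genes other than keratins with a mean of at least 50 CPM. For *krt92* the nearest were *scp2a*, *sult2st2* and *arr3a* (0.05 to 0.15), for *krt97* they were *tnni2a.1*, *cyp2p6* and *aldh9a1a.1* (0.22 to 0.29), and for *cyt1l* they were *tnni2a.1*, *hgd* and *aldh9a1a.1* (0.28 to 0.29). By the same measure the closest pair of members was *krt97* and *cyt1l*, at 0.08, nearer to each other than any of the 3651 genes was to either. The added 1 shrinks the differences of *krt92*, at 4.31 to 21.2 CPM, more than those of the genes it was compared with. With 4 libraries such likeness is a description.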

How the data were processed

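RNA of 4 pools was sequenced, and the authors deposited raw read counts for each RefSeq mRNA. The submitters' processing notes name build GRCz10 and the tools HTSeq, DESeq2 and Bowtie2 2.1.0, without role or order. The sources used here do not give the annotation, the strand setting or the handling of reads that fit several genes. Of 15171 rows, 14472 were given a symbol through the RefSeq table of assembly GRCz12tu. Where a symbol had several rows (293 symbols), the one with most counts was read for it. The fit and the shares of all genes used every row that passed the filter, so the 12786 genes tested are rows. Titles gave the groups.

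The test was edgeR 4.0.16 in R 4.3.3 (filterByExpr, TMM, glmQLFit and glmQLFTest, Benjamini-Hochberg over 12786 genes, no block). The SE of a log2 fold change is its size over the square root of F. The biological coefficient of variation was 20.0%. Replicates were not duplicates (chi-square per degree of freedom 14.4 in mutants, 16.9 in siblings). The test was also run on counts simulated from means and dispersions estimated in these data, with no deviation shared by same-numbered libraries. That run does not check the adjusted p for these pools. Alternatives were DESeq2 1.42.0, limma-voom (limma 3.58.1), other scalings and filters, a block and leaving out each library. The planned protein and promoter comparison and levels per coding length were not made.

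The members and lists were chosen with earlier results of these data known. Named were all 9 members, and of the other keratins those past the threshold or with the 5 highest mean CPM. Of each list, up to 4 past the threshold in each direction and the 2 with the highest mean CPM were named, with counts only for most lists of other organs. The genes most like the members were named last.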

Additional observations from a re-analysis of the deposited data

How the results depend on the processing

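Of the 9 keratins, 3 passed in the fit reported, and 2 to 4 passed with DESeq2, limma-voom, other scalings, other count filters and the sum of all rows of a symbol. The 2 came from requiring at least 50 counts in 2 libraries, under which *krt92* was not tested. With 1 library left out, the number was 1 to 5 (1 without mutant 2, 5 without sibling 2). For the genes of the 5 epidermis lists, 6 were called in the fit reported and 0 to 9 with 1 library left out (0 without mutant 2), and for all genes 1070 against 576 to 1559, lowest without mutant 2. With the replicate number as a block the counts were 6 keratins, 18 epidermis genes (17 higher, 1 lower) and 2531 genes. Same-numbered libraries deviated together (r = 0.24 across genes), but the labels do not say that a number marks a clutch. What such libraries share beyond the number cannot be told from the labels. Under the replicate block *krt15* and *cyt1* also passed as lower and *krt17* as higher. Signs turned for *krt5* without mutant 2 (-0.19 to 0.82 with 1 library left out) and for *krt8* with library totals alone (0.0205) and without sibling 1 (-0.30 to 0.19 with 1 library left out), and no other keratin of the 9 changed sign under the alternatives run. The log2 ratio of the summed CPM, -0.54, lay between -0.84 and -0.24 with 1 library left out. The causes were not tested. With 2 pools a group, depth of 46 and 15 counts limits *krt92* in the mutants.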
